A study of Mus musculus with 2 samples.

Results

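The classical monocyte-like cells of a mouse bone marrow single-cell RNA library were chosen by measured counts of unique molecular identifiers (UMIs), which count RNA molecules: barcodes with mitochondrial genes under 10% of UMIs, Fn1 and F13a1 together at 3 or more UMIs, S100a8 plus S100a9 under 15% and the granule genes Elane, Mpo, Prtn3 and Ctsg together under 2% of UMIs. The rule kept 647 barcodes, called the members here, of 6439 marrow barcodes under the mitochondrial limit, a share of 10.0% (exact binomial 95% interval 9.32 to 10.8). The marrow matrix held 6458 barcodes and the whole series 8980. The values of those genes chose the members, so they are given as a description, and every other gene was read in the same chosen barcodes. Members held 594 to 5877 UMIs with a median of 1259 and a median of 717 genes, against a median of 1024 UMIs in the other 5792 marrow barcodes. Of the members, 13 (2.01%) were called doublets by Scrublet and were kept.

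The marrow library was made from CD45+ CD3- Ly6G- cells, sorted from 3 naive C57BL/6 mice and pooled before loading. A second library held CD45+ Car1-GFP cells, pooled from 3 naive Car1-GFP reporter mice on the same background, and 10000 sorted cells were loaded per the series' design text. Age and sex are not given in the sources used here. Each group is 1 pooled library, so there is no replicate, no test was made, and every interval below covers counting error only. PCR copies were collapsed by UMI, so values count molecules.

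Classical monocytes are short-lived blood phagocytes that are born in the bone marrow from granule-protein-rich progenitors, leave it through the chemokine receptor CCR2, and carry the surface protein Ly6C in mice. They are known for carrying clotting and matrix proteins, among them fibronectin (Fn1) and the A subunit of the clotting enzyme factor XIII (F13a1). In the marrow they sit between the granule-making progenitors and a Ly6C-low, non-classical monocyte that patrols vessels, and they share tissue with neutrophil precursors, whose most abundant messages encode the calprotectin subunits S100a8 and S100a9.

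The rule cut through a continuous range. With the other limits met, 2277 barcodes had no Fn1 or F13a1 UMI, 744 had 1 and 435 had 2, and these stood outside the rule. Just inside it, 262 barcodes had 3 and 185 had 4, 87 had 5, 69 had 6 and 44 had 7 or more. Both genes were seen in 485 members, Fn1 alone in 70 and F13a1 alone in 92. The calprotectin limit removed 12 barcodes that met the Fn1 and F13a1 minimum, 5 of them with S100a8 plus S100a9 at 15 to under 20%, and 8 members lay at 10 to under 15%. No barcode with enough Fn1 and F13a1 was removed by the granule limit, and 18 members lay at 1 to under 2%.

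F13a1 lies on chromosome 13 (mm10, 36867178 to 37050244, minus strand), Fn1 on chromosome 1 (71585520 to 71653200, minus strand) and S100a4, which the rule did not use, on chromosome 3 (90603771 to 90606045, plus strand). F13a1 is a gene of the rule, and S100a4 the defining marker with the highest ratio outside it. The 250 bases before 1 of 2 start sites of F13a1 and before the start site of S100a4 are printed. They are RefSeq sequences of GRCm38.p6, and capitals mark the letters GAGGAA, a core recognised by PU.1, the master regulator of myeloid cells.
F13a1, chr13:37050245-37050494, minus strand: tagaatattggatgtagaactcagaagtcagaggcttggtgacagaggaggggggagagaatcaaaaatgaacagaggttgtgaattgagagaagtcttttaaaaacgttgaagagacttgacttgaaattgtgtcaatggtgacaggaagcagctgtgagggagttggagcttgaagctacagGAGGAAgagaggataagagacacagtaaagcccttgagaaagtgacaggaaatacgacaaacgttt
S100a4, chr3:90603520-90603769, plus strand: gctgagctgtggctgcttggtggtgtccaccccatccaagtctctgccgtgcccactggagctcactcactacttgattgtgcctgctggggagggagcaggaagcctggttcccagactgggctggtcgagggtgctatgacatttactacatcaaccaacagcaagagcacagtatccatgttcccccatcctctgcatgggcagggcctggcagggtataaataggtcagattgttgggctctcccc
On either strand, the printed F13a1 window held 1 GAGGAA, 66 bases before the start, and the S100a4 window held none. The window of the other F13a1 start site (37049214 to 37049463), not printed because it overlaps an annotated exon, held none. Of the other windows searched, those of Klf4, Crip1 and Lyz2 held no GAGGAA. The granule genes Prtn3 and Elane held 1 each and Mpo held 2. The windows of Lyz2 and of these granule genes overlap annotated exons and are not printed. None of these windows held TTGCNNAA, a C/EBP motif. Of 32851 RefSeq promoters searched over 250 bases, 23.3% held GAGGAA and 9.56% held TTGCNNAA, and the motifs do not overlap each other. The RefSeq promoter table gave no entry for Fn1, which is named only.

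The members carried the markers of classical monocytes at higher summed levels than the other marrow barcodes. Levels are CPM, the UMIs of a gene per 1000000 summed UMIs of a group, and ratios are log2 of one CPM over another. S100a4, a calcium-binding protein of motile cells, stood at 767 CPM (exact Poisson interval 713 to 824) in members and 202 CPM in other barcodes, a log2 ratio of 1.93 (1.80 to 2.05). Klf4, a transcription factor needed for monocytes, stood at 237 CPM against 63.8 CPM, a log2 ratio of 1.89 (1.66 to 2.12). Crip1, a small LIM-domain protein, stood at 5860 CPM against 1832 CPM, a log2 ratio of 1.68 (1.63 to 1.72). These markers were named with the label, with earlier results of these data known. None of the 3 entered the rule, but their levels are a description and no independent check of the label.

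Of 10485 genes with 20 or more UMIs over members and other barcodes, 577 (5.5%) were at least 2-fold higher in members and 1030 (9.82%) at least 2-fold lower, and the median log2 ratio was 0.10. The 2-fold mark is a size, not a test. Of the 11 classical monocyte markers, Fn1 and F13a1 were fixed by the choice of members, 8 of the others were at least 2-fold higher, and Chil3, a secreted chitinase-like protein, was lower at 760 CPM against 1638 CPM. In the calprotectin-high barcodes, Chil3 stood at 3884 CPM. In a longer list of 14 measured classical monocyte genes without Fn1 and F13a1, which shares genes with those markers, 6 were higher and 2, Chil3 and Thbs1, were lower, with a median of 0.94. Scaling by TMM or by DESeq2 size factors moved every ratio against the other barcodes by -0.15, which gave 388 genes higher and 1248 lower with TMM. The counts below are on the CPM scale. List counts against the other barcodes stand beside the 5.5% higher and 9.82% lower over all measured genes. In a short list, a gene or a pair of genes on a side lies near those shares and is no result about the list.

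Of receptors that bring monocytes out of marrow and into tissue, Ccr2, the receptor for CCL2, stood at 831 CPM (774 to 890) in members against 267 CPM, a log2 ratio of 1.64. Csf1r, the receptor for the survival factor M-CSF, stood at 147 CPM against 54.6 CPM, and Cx3cr1, the fractalkine receptor, at 168 CPM against 64.9 CPM. Ly6c2, which encodes the Ly6C antigen, stood at 2321 CPM (2226 to 2419) against 1074 CPM. Ly6c1 is a near copy of it and stood at 38.2 CPM against 17.3 CPM, and reads of the pair may be split between them. Of 19 chemokine receptors and adhesion genes, 4 were at least 2-fold higher and 1 lower, with a median log2 ratio of 0.38. The lower gene was Cd9, a tetraspanin, at 30.0 CPM against 165 CPM.

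Among cytokine receptors, those for M-CSF and interleukin-6 were higher in members. Of 21 measured, 4 were at least 2-fold higher and 3 lower. Il6st, the shared signalling chain of the interleukin-6 family, stood at 71.3 CPM against 22.3 CPM and Il6ra, its ligand-binding partner, at 110 CPM against 48.1 CPM. The lower ones were receptors of earlier progenitors or of neutrophils. Kit stood at 14.5 CPM against 53.5 CPM, Flt3 at 4 UMIs in all members, and Il1r2 at 1 UMI. Of 18 pattern recognition genes, 5 were higher and 2 lower. Msr1, a scavenger receptor, had a log2 ratio of 2.20 (1.60 to 2.77) at 42.4 CPM, and Ly96, the partner of TLR4, had 1.49 at 59.9 CPM.

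Clotting and matrix genes divided. Of 19 measured, 8 were at least 2-fold higher, among them Fn1 and F13a1 of the rule, and 3 lower, and the median was -0.18. Vcan, the matrix proteoglycan versican, had 22 UMIs in members and a log2 ratio of 2.49 (1.64 to 3.33). F10, coagulation factor X, stood at 77.5 CPM against 25.1 CPM, and Tgfbi, a secreted matrix adhesion protein, at 179 CPM against 57.0 CPM. Thbs1, the platelet and matrix protein thrombospondin, was lower at 8.27 CPM against 20.8 CPM. Of 9 complement genes measured, 5 were at least 2-fold lower and 1 higher. The summed level of the list was alike, at 477 CPM in members and 478 CPM in other barcodes. C1qa, C1qb and C1qc, which mark tissue macrophages, had 2, 3 and 1 UMIs in all members.

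Genes of the moving cell's skeleton were the list with the most genes on the higher side. Of 26 S100, annexin and cytoskeleton genes, 12 were at least 2-fold higher and 1 lower, with a median of 0.79. Tmsb10, which binds actin monomers, stood at 10084 CPM against 3234 CPM. S100a10, which partners annexin A2, stood at 783 CPM against 259 CPM. Lgals3, a secreted galectin, stood at 1508 CPM against 510 CPM. Of 22 lysosome genes, 6 were higher and 1 lower with a median of 0.79. Ctsc, the cathepsin that activates granule proteases, had a log2 ratio of 1.80 (1.60 to 1.99) and Psap, a lysosomal cofactor, 1.21, whereas Cd63, a tetraspanin of granules, had -2.66 (-3.13 to -2.23). Lyz2, lysozyme, stood at 10845 CPM against 5811 CPM.

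Among 34 myeloid transcription factors, 5 were at least 2-fold higher and 6 lower, with a median of 0.13. Irf5, an interferon regulatory factor of macrophages, stood at 131 CPM against 37.5 CPM, and Cebpb, a C/EBP factor of monocytes, at 569 CPM against 233 CPM. Cebpe, which neutrophil maturation needs, stood at 28.9 CPM against 215 CPM, a log2 ratio of -2.90 (-3.49 to -2.36). Its ratio ran from -3.22 to -1.27 over the alternative settings. Gfi1, a repressor that neutrophil development needs, had 3 UMIs in all members, and Irf8 stood at 306 CPM against 274 CPM, within counting error of a ratio of 1. Irf8 turned to a log2 ratio of -0.33 against other barcodes with S100a8 plus S100a9 under 15%, a set chosen after seeing the data.

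Of 26 interferon-stimulated genes, 8 were at least 2-fold higher and 5 lower. Ifitm3, which blocks virus entry, stood at 2467 CPM against 985 CPM, Mnda at 87.8 CPM against 27.9 CPM and Ifi204 at 76.5 CPM against 28.0 CPM. Of 12 cytokines and chemokines, 3 were higher and 4 lower. Ccl6 stood at 458 CPM against 169 CPM and Ccl9 at 260 CPM against 94.2 CPM, whereas Il1b had 1 UMI in all members. All 7 NADPH oxidase genes, which make the oxidative burst, lay within 2-fold. MHC class II genes, which present antigen, were lower for 5 of 9, and Cd74, the invariant chain, stood at 232 CPM against 567 CPM. In the dissociation stress list, 1 of 8 genes was 2-fold higher (Fos, 24.8 CPM against 10.9 CPM).

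**Figure D1:**
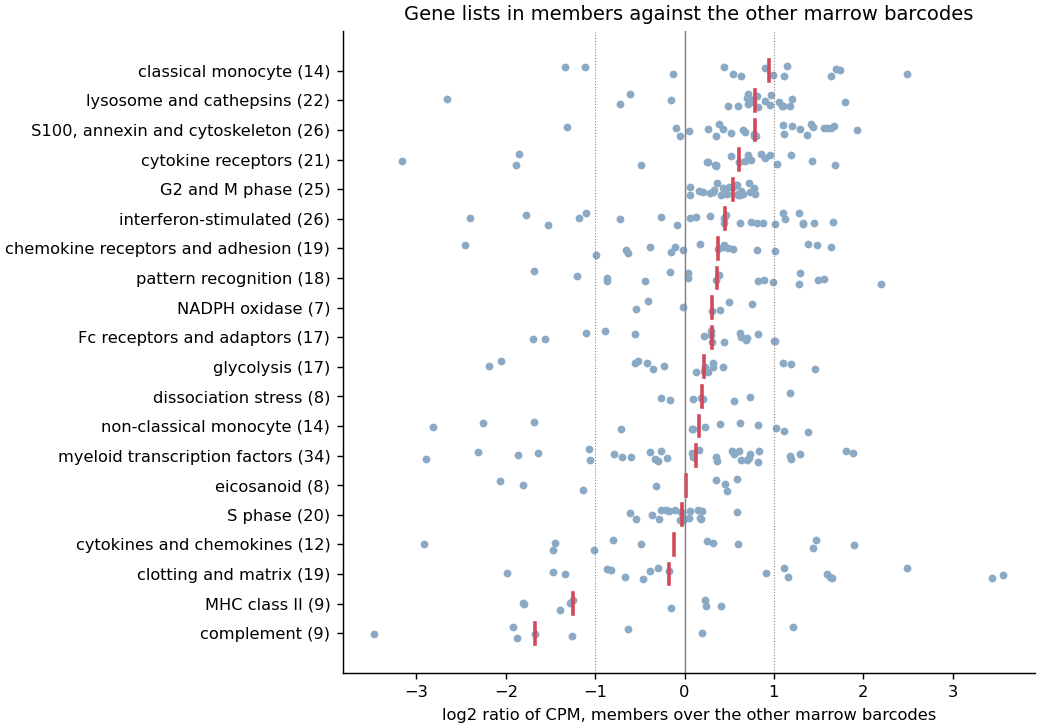
Log2 ratio of CPM in the 647 members over the other 5792 marrow barcodes for the measured genes of 20 lists. Points are genes with a random vertical offset, red bars are list medians, dotted lines mark 2-fold, and the number measured stands in brackets. The classical monocyte, lysosome and cytoskeleton lists have the highest medians (0.94, 0.79 and 0.79), and complement and MHC class II the lowest (-1.67 and -1.25).

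By the naming rule, the highest ratios outside the rule were those of Stxbp6, S100a4, Klf4, Pira2, Fabp5, Ms4a6c, Irf5 and Ctsc. Stxbp6, a syntaxin-binding protein, stood at 105 CPM against 23.3 CPM, Fabp5, a fatty acid carrier, at 156 CPM against 43.6 CPM, and Ms4a6c, a membrane protein of monocytes, at 1177 CPM against 333 CPM. Emilin2, a matrix glycoprotein, and Naaa, a lipid amidase, had log2 ratios of 1.70 and 1.66. The lowest were Car2, at -3.66, the neutrophil granule genes Ngp (-2.93), Pglyrp1 (-2.91), Camp (-2.88) and Lcn2 (-2.86), and the antibody chain gene Jchain (-2.85). The other barcodes include 2164 with S100a8 plus S100a9 at 15% or more, which the rule keeps out of the members. The low ratios of neutrophil granule genes are thus tied to the rule. Over the alternative settings, the log2 ratio of Camp ran from -3.13 to -0.32.

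Several marker lists of other cell types each had 1 gene with no UMI in any member, while their other genes in the matrix were detected. Those at 0 were Treml4 (non-classical monocytes), Mertk (macrophages), Xcr1 (dendritic cells), Pax5 (B cells), Eomes (NK cells), Cd3g (T cells) and Cd200r3 (basophils). Treml4 had 24 UMIs in the other barcodes, too few to call its 0 in members 2-fold lower. Summed conventional dendritic markers stood at 282 CPM in members against 450 CPM in other barcodes. Among them, 5 were at least 2-fold lower and Naaa was higher, at 107 CPM against 34.0 CPM. Summed plasmacytoid dendritic markers stood at 642 against 1232 CPM, and 59 members had 3 or more of their UMIs. Summed B lineage markers stood at 103 against 135 CPM. Those of NK cells stood at 179 against 506 CPM, macrophages at 81.6 against 166 CPM, and basophils and mast cells at 429 against 998 CPM. The summed neutrophil markers stood at 6083 CPM in members, 5244 CPM in the erythroid barcodes and 40425 CPM in other barcodes. Erythroid barcodes are 269 marrow barcodes with 3 or more UMIs of red-cell genes and Fn1 plus F13a1 under 3 UMIs, and serve as the cells that should lack monocyte genes. The summed granulocyte-monocyte progenitor markers, the 4 capped by the rule included, stood at 2755 CPM in members, 4022 CPM in other barcodes and 766 CPM in erythroid barcodes, and 164 members had 3 or more of their UMIs. The non-classical markers stood at 548 CPM in members, 347 CPM in other barcodes and 169 CPM in erythroid barcodes, and 42 members had 3 or more of their UMIs, Cx3cr1 and Clec4a3 included. Lepr, the leptin receptor, had 200 UMIs in 118 members (207 CPM against 77.1 CPM). Of the other stromal and endothelial markers, Cxcl12 was detected in members and Col1a1, Cdh5, Kdr and Col4a1 were not. With Lepr included, these markers summed to 216 CPM against 91.9 CPM. In all, 3.40% of members and 1.09% of other barcodes had 3 or more of their UMIs. Lepr was named after its values were seen, and reads of the overlapping gene Leprot, at 38.2 CPM against 33.5 CPM, may be hard to tell from it.

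To compare shares of barcodes with a UMI at equal depth, each barcode was thinned to 700 UMIs, which left out 48 members and 7 erythroid barcodes. Ccr2 was seen in 48.2% of thinned members (44.2 to 52.3), in 16.2% of other barcodes and in 4.20% of erythroid barcodes. The unthinned shares were 67.5% of members and 15.6% of erythroid barcodes, whose median depths were 1259 and 2778 UMIs. S100a4 was seen in 46.2% of thinned members against 3.44% of erythroid barcodes, Klf4 in 15.7% against 0.382%, and Csf1r in 9.02% against none of 262. Ly6c2 was seen in 75.8% of members and 9.54% of erythroid barcodes. Each of these 5 shares was above that of the erythroid barcodes beyond counting error.

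Other sets of marrow barcodes were laid beside the members. The nearest are 128 barcodes with Gngt2 plus Clec4a3 at 2 or more UMIs that met the other limits. Their summed non-classical markers stood at 3460 CPM, with Gngt2 at 1548 CPM and Clec4a3 at 889 CPM, which chose the set. Conventional dendritic markers, H2-Aa and H2-Ab1 included, stood at 2230 CPM there against 282 CPM in members. Of the set, 17.2% had 3 or more UMIs of those markers, and monocyte and dendritic barcodes were not told apart in it. The others are 172 granule-gene barcodes, with Elane, Mpo, Prtn3 and Ctsg at 2% or more, 2164 calprotectin-high barcodes, with S100a8 plus S100a9 at 15% or more, and the erythroid barcodes. Each is a range cut from counts and not a cell type.

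**Figure D2:**
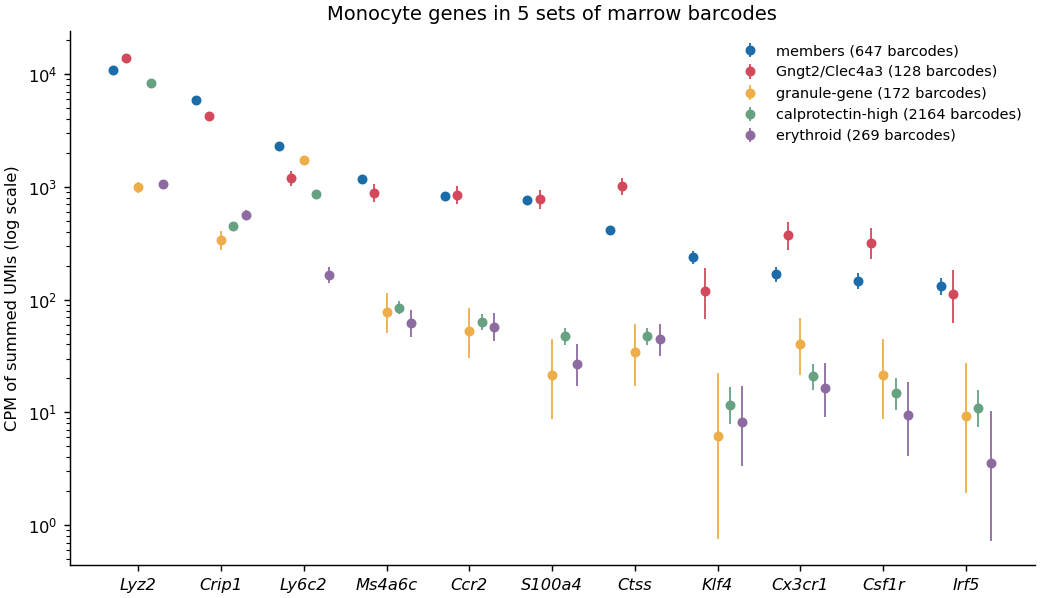
CPM of summed UMIs on a log axis for 11 monocyte genes in members and 4 other sets of marrow barcodes, with exact Poisson intervals that cover counting error only. The members and the Gngt2/Clec4a3 barcodes lie close for Ccr2 (831 and 852 CPM) and S100a4 (767 and 778 CPM). On this scale the members lie above the granule-gene, calprotectin-high and erythroid sets for all 11 genes, though for Lyz2 against the calprotectin-high set the order turned under TMM, DESeq2 and totals without the rule genes.

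Against the Gngt2/Clec4a3 barcodes, members had more of the cell cycle genes and less of the MHC class II genes. Of 5825 genes measured, 741 (12.7%) were at least 2-fold higher in members and 366 (6.28%) lower. This balance turned to 523 higher and 753 lower with a minimum of 3 UMIs for the other set, and to 896 and 1880 with a minimum of 1 UMI per gene. Of 25 G2 and M phase genes, 17 were higher, with a median log2 ratio of 1.55, and 9 of 18 S phase genes were. Top2a, which untangles replicated DNA, stood at 646 CPM in members and 133 CPM in the other set, a log2 ratio of 2.28 (1.60 to 3.04). Of 6 MHC class II genes, 5 were lower, with Cd74 at 232 CPM against 3149 CPM and H2-Ab1 at 68.2 CPM against 1037 CPM. In that set, which also carried dendritic markers, 25% of barcodes had 3 or more MHC class II UMIs, against 2.63% of members. Of 9 non-classical genes measured, 8 were lower, and Gngt2 and Clec4a3 chose that set.

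Between members and the Gngt2/Clec4a3 barcodes, not all monocyte genes differed in size. Ccr2 had a log2 ratio of -0.04 (-0.32 to 0.26), S100a4 of -0.02 (-0.32 to 0.29), Csf1r of -1.12 (-1.62 to -0.59) and Cx3cr1 of -1.14 (-1.60 to -0.65). The intervals of Ccr2 and S100a4 span a ratio of 1, and their sign turned under TMM and DESeq2 scaling. Ly6c2 stood at 2321 CPM against 1193 CPM. Nr4a1, the nuclear receptor that non-classical monocytes need, had 9 UMIs in members and 11 in the smaller set, a log2 ratio of -3.13 (-4.58 to -1.72). Apoe, a lipid carrier, had -2.71 and Irf7, an interferon regulator, -2.84.

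Against granule-gene barcodes, members had more of the monocyte genes and less of the progenitor granule genes. Of 6246 genes, 1317 (21.1%) were at least 2-fold higher and 416 (6.66%) lower. Of 13 classical monocyte genes measured, 9 were higher and none lower, and of 6 MHC class II genes all 6 were higher. S100a4 had a log2 ratio of 5.15 (4.10 to 6.46) on 7 UMIs in the granule-gene barcodes. Klf4 had 5.26 (3.39 to 8.31) and Ms4a4c, a membrane protein of monocytes, 5.35 (3.48 to 8.40), each on 2 UMIs there. Naaa had no UMI there and was at least 11.6-fold higher in members, against a floor of 3 counts over the set. Ly6c2 stood nearer, at 2321 CPM against 1721 CPM. On the lower side, outside the rule, were Prss57 (-5.26), Ms4a3 (-4.11) and Nkg7 (-3.99), which encode granule or progenitor proteins. Cebpe had -3.22.

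Against calprotectin-high barcodes, which carried the later granule genes of neutrophil precursors, members had more of the monocyte transcription factor, receptor and S100a4 messages. Of 8060 genes, 2797 (34.7%) were at least 2-fold higher and 510 (6.33%) lower. S100a8 plus S100a9 made up 31.8% of the UMIs of that set and 1.73% of those of members, and TMM and DESeq2 scaling shifted all ratios by -0.78 and -0.76. With TMM the counts were 850 higher and 1194 lower. Ass1, an arginine synthesis enzyme, had a log2 ratio of 4.86, Klf4 of 4.33, Ly86 of 4.24, S100a4 of 4.02 and S100a10 of 3.90. Orm1, an acute-phase protein, had -4.41, and Lcn2 and Camp had -4.24 and -4.25, far past the shift. Lyz2 had 0.39, and its sign turned with scaling.

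The levels of S100a4, Ccr2 and Klf4 were graded with Fn1 plus F13a1, and their rise did not begin at the rule's minimum. From barcodes with 0 UMIs through 1, 2, 3 to 4 and 5 or more, S100a4 stood at 180, 421, 662, 729 and 850 CPM. Ccr2 stood at 270, 561, 701, 809 and 880 CPM, and Klf4 at 55.8, 148, 203, 207 and 301 CPM. For these 3 genes the largest fold step was from 0 to 1 UMI. Cd74 went the other way, at 1120, 529, 323, 277 and 136 CPM, as did Hbb-bs, a haemoglobin chain. Its level was 1532 CPM in barcodes with none and 49.6 CPM in those with 5 or more. Median depth went from 942 to 1370.5 UMIs over the same steps, and its part in the levels was not tested.

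**Figure D3:**
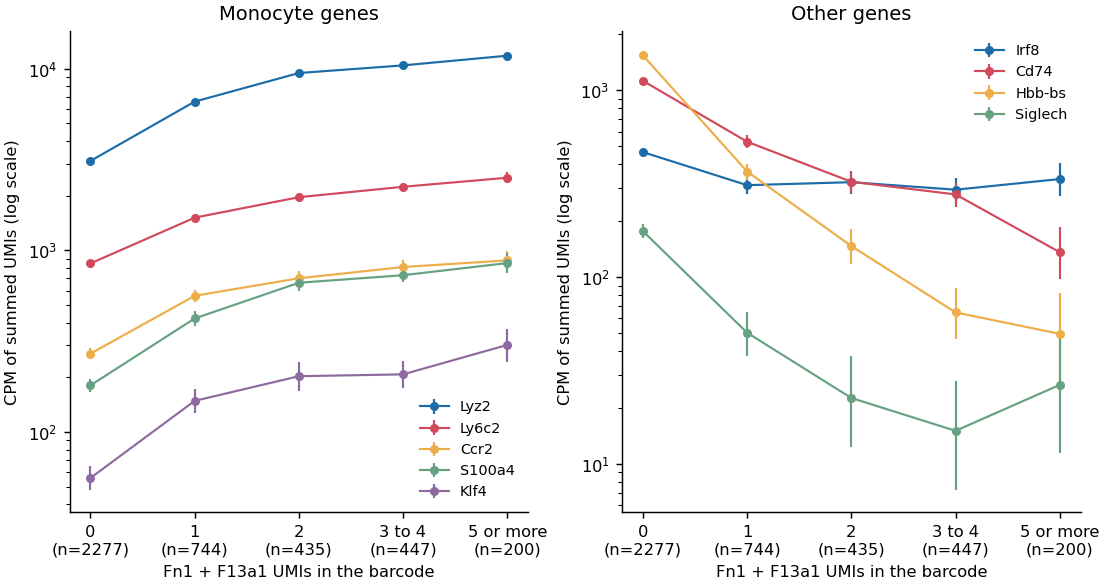
CPM of summed UMIs (log axis) against Fn1 plus F13a1 UMIs per barcode, for marrow barcodes within the calprotectin and granule limits, with exact Poisson intervals. The rule keeps the bins of 3 to 4 and 5 or more (447 and 200 barcodes); the 435 barcodes with 2 UMIs lie close to them for Ccr2 (701 against 809 CPM) and S100a4 (662 against 729 CPM), while Cd74 goes down from 1120 to 136 CPM.

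Members differed among themselves in cell cycle genes. The S plus G2 and M phase genes made up 0.5% or more of UMIs in 306 members (47.3%, 43.4 to 51.2), against 31.8% of other barcodes, 3.91% of Gngt2/Clec4a3 barcodes and 79.6% of erythroid barcodes. Thinned to 700 UMIs, an alternative added after seeing the data for the other sets, these shares were 44.1% of members (40.1 to 48.2), 34.4%, 7.53% and 71.0%. The 48 members and 35 Gngt2/Clec4a3 barcodes under 700 UMIs were left out there. At 1% of UMIs, 8.66% of members were over the limit as counted, and 15.5% after thinning. The members over it were deeper, with a median of 1608.5 UMIs against 967. Among 5411 genes measured, 7.26% were at least 2-fold higher in those members and 3.73% lower. Cx3cr1 was lower at 102 CPM against 259 CPM, Csf1r at 96.7 CPM against 215 CPM, the cathepsin Ctss at 254 CPM against 623 CPM and the secreted Wfdc17 at 315 CPM against 1246 CPM. Ly6c2 at 2482 CPM against 2101 CPM and Ms4a6c at 1193 CPM against 1156 CPM stood near each other.

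A UMI of Elane, Mpo, Prtn3 or Ctsg was found in 323 members (49.9%), and in 39.6% of members thinned to 700 UMIs. In erythroid barcodes, 61.3% had one at their higher median depth, and 22.1% after thinning. Between members with and without one, 5.75% of 5411 genes were at least 2-fold higher and 4.71% lower. Among the highest by the naming rule, Myb, a progenitor transcription factor, stood at 153 CPM against 27.7 CPM, Ms4a3, a membrane protein of granulocyte and monocyte progenitors, at 135 CPM against 24.9 CPM, and Igfbp4 at 101 CPM against 13.8 CPM. Fn1 itself stood at 1025 CPM against 2157 CPM. That level is not read as a difference, since the rule sets a minimum of Fn1 plus F13a1 UMIs and their median was 4 UMIs on both sides. The split itself sets the levels of the 4 granule genes only. Depth moves with the split, since the median was 1597 UMIs against 1002.5.

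Laid across each other, the splits gave 4 subsets, and Lyz2, S100a4, Ccr2 and Cx3cr1 were highest in the members under the cycle limit and with no granule UMI. The 188 members over the cycle limit and with a granule UMI had Lyz2 at 7181 CPM, the 118 with cycle only 10903 CPM, the 135 with granule only 9538 CPM and the 206 with neither 19657 CPM. Those 206 still held S phase genes at 595 CPM and G2 and M phase genes at 657 CPM. S100a4 stood at 568, 799, 653 and 1267 CPM, Ccr2 at 645, 852, 690 and 1345 CPM and Cx3cr1 at 81.9, 149, 194 and 331 CPM in the same order. Ly6c2 went the other way, at 2530, 2373, 2232 and 1955 CPM. Median depth was 1849, 1373, 1278 and 896.5 UMIs, and its part in these levels was not tested.

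**Figure D4:**
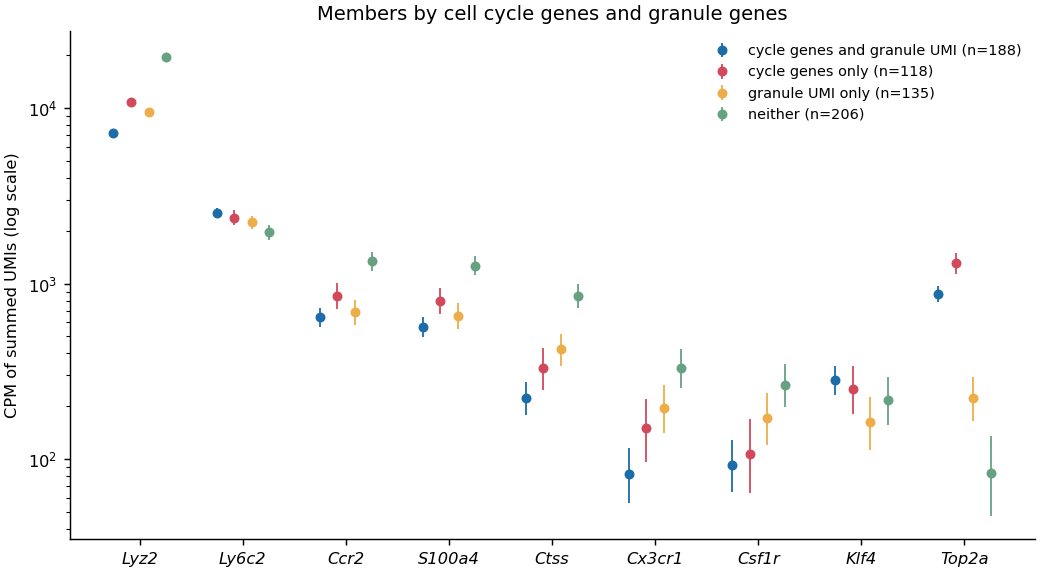
CPM of summed UMIs on a log axis in members divided by cell cycle genes (0.5% of UMIs or more) and by a UMI of the 4 granule genes, with exact Poisson intervals. Lyz2, Ccr2, S100a4, Ctss and Cx3cr1 are highest in the 206 members with neither; Ly6c2 is lowest there (1955 CPM); Top2a is among the genes that make the cycle split.

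Depth ordered the members the same way. Across 4 bins of near-equal size, from 594 to 902 UMIs up to 1807 to 5877 UMIs, Lyz2 stood at 19418, 17190, 11808 and 5362 CPM, Ctss at 905, 612, 377 and 209 CPM and Ccr2 at 1516, 1119, 885 and 492 CPM. Mpo stood at 139, 188, 156 and 1405 CPM, and Top2a at 163, 377, 828 and 786 CPM. Klf4 was level, at 245, 218, 258 and 230 CPM. Fn1 and F13a1 are not read across depth, since the rule sets a minimum of their UMIs.

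The 92 members with F13a1 and no Fn1 stood apart from the 555 with Fn1, a division made after seeing the data. They had 3.95% of 5411 genes at least 2-fold higher and 12.1% lower. Igfbp4 stood at 198 CPM against 31.8 CPM, Myb at 216 CPM against 75.5 CPM, and Cd34, a surface protein of progenitors, at 65.9 CPM against 14.6 CPM. Mpo stood at 1854 CPM against 396 CPM and Elane at 1661 CPM against 293 CPM, within the 2% limit. On the lower side, Lyz2 stood at 4282 CPM against 12692 CPM, a log2 ratio of -1.57 (-1.67 to -1.47), and S100a4 at 301 CPM against 898 CPM. Ly6c2 did not separate them, at 2414 CPM against 2295 CPM.

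These 92 members were deeper, at a median of 2299 UMIs against 1216. Within the deepest bin of members, where 57 had F13a1 alone and 105 had Fn1, the medians were 2876 and 2213 UMIs. There Lyz2 stood at 2867 CPM against 7056 CPM, S100a4 at 264 CPM against 561 CPM and Mpo at 2190 CPM against 872 CPM. The direction was the same as over all members for these 3 genes. Depth still differed within the bin, and its part in these levels was not tested.

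**Figure D5:**
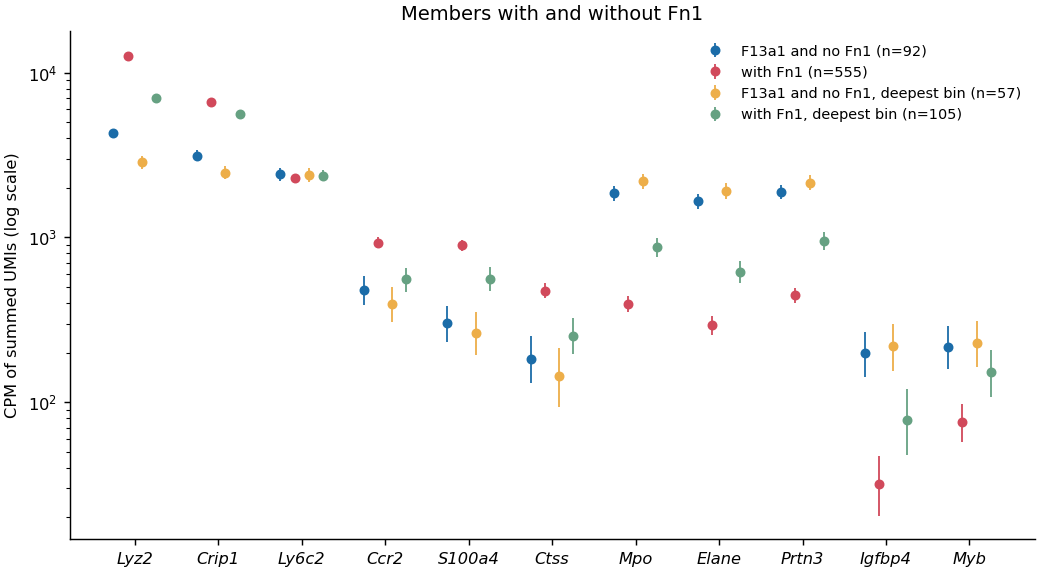
CPM of summed UMIs on a log axis in members with F13a1 and no Fn1 UMI and in members with Fn1, over all depths (92 and 555) and within the deepest bin (57 and 105), with exact Poisson intervals. Lyz2, Crip1, S100a4 and Ctss are lower and Mpo, Elane, Prtn3, Igfbp4 and Myb higher without Fn1; Ly6c2 lies between 2295 and 2414 CPM in all 4 sets.

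No Ly6c2 UMI was seen in 82 members, which were shallower (median 874 UMIs against 1331). Those without it had Cx3cr1 at 466 CPM against 141 CPM, Cd74 at 834 CPM against 177 CPM and Top2a at 282 CPM against 679 CPM, where 12.3% of genes were at least 2-fold higher with Ly6c2 and 7.02% lower. In 17 members (2.63%, 1.54 to 4.17), 4 of them among the 82, there were 3 or more MHC class II UMIs, and 8 of 599 did after thinning. Their Fn1, which the rule's minimum ties to depth, stood at 1336 CPM against 1452 CPM, at median depths of 1501 and 1256 UMIs. Of all genes measured, 11.6% were at least 2-fold higher in them and 6.19% lower. With only 17 or 82 barcodes on a side, a gene near the minimum of 20 UMIs over both sides can pass 2-fold on a few UMIs. The shares of these splits are therefore not read as a measure of how distinct the barcodes are. Of these 17, 2 were called doublets.

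Some variation rested on a few barcodes. Over 599 members thinned to 700 UMIs, the median variance over mean of 2052 genes was 1.04, where counting alone gives values near 1, and 40 genes were over 1.5. The highest were Mcpt8, a basophil protease, at 21.0, Actb, an actin chain, at 16.7, Cd74 at 9.64 and Prss34, another basophil protease, at 6.71. Of 237 Mcpt8 UMIs, 79.3% lay in 4 members, 2 of which were called doublets. Without the 4 members with 3 or more basophil and mast cell UMIs, left out after seeing the data, Mcpt8 went from 245 to 51.1 CPM and Prss34 from 130 to 44.8 CPM. Mcpt8 had the highest log2 ratio over the Gngt2/Clec4a3 barcodes among the named genes, 4.05 (2.18 to 7.10) on 2 UMIs there, with those 4 members kept. Of the Cd74 UMIs, 60.4% lay in 10 members.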

How the data were processed

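UMI counts per gene and barcode were deposited by the authors as 10x matrices, made with Cell Ranger 2.1 and Seurat 2 on mm10 per the submitters' processing notes; which tool did which step is not given in the sources used here. Barcodes were used as deposited, and none of their counts was corrected for free RNA. The 2 libraries shared 14 barcode sequences, 1 of them a member. UMIs were summed per set and divided by the set's total (CPM), with exact Poisson intervals, and ratios carry exact binomial 95% intervals for a pair of counts. Genes with 20 or more UMIs over both sides were measured. Doublets were called with Scrublet in scanpy 1.11.5 (171 of the marrow barcodes) and kept. Python 3.11.15, numpy 2.4.6, scipy 1.17.1, pandas 2.3.3, R 4.3.3, edgeR 4.0.16 and DESeq2 1.42.0 were used, the latter pair for scaling factors only. The ratio code was tested on simulated data. Members and lists were chosen with earlier results of these data known. Named genes were fixed genes, the 20 highest and 10 lowest ratios against other barcodes and the 10 highest and 10 lowest against each other set, with 100 CPM on the higher side and 50 UMIs over both, leaving out mitochondrial, ribosomal protein, globin and immunoglobulin genes, plus up to 6 genes per list, 10 highest and 5 lowest per split and the 20 most dispersed. Alternatives changed each limit, the scaling, the minimum of UMIs and the weight of barcodes.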

Additional observations from a re-analysis of the deposited data

Results flagged for a closer look

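The rule was also applied to the Car1-GFP library, which the comparisons do not use. Of its 2400 barcodes under the mitochondrial limit, 4 met it, a share of 0.167% (exact binomial interval 0.0454 to 0.426). A count of 0 would allow up to 0.125%. That library is much deeper, with a median of 15512.5 UMIs per barcode, so a minimum of 3 UMIs asks less there. Fn1 had 35 UMIs over the library (0.818 CPM) and F13a1 had 28. Of the 4 barcodes, 2 carried Lyz2 at 274 and 187 UMIs and Ly6c2 at 20 and 39 UMIs, and the other two carried Lyz2 at 11 and 2 UMIs with F13a1 and no Fn1.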

How the results depend on the processing

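No paired analysis was possible because each group is 1 library and the labels carry no replicate numbers, and no replicate could be left out. Members numbered 1082 (16.8%) with a minimum of 2 UMIs, 200 (3.11%) with 5, which gave 914 genes higher than in other barcodes, and 431 (12.6%) among barcodes of at least 1000 UMIs. Against other barcodes, genes 2-fold higher numbered 377 without the rule genes in the totals, 1286 with a minimum of 1 UMI and 313 against barcodes with S100a8 plus S100a9 under 15%, a set added after seeing the data. Against Gngt2/Clec4a3 barcodes, 523 were higher and 753 lower with a minimum of 3 UMIs for that set, 896 and 1880 with 1 UMI per gene, and 263 and 106 with 50. Against granule-gene barcodes, 1371 were lower with 1 UMI, and 611 higher and 159 lower with 50. Against calprotectin-high barcodes, 850 were higher and 1194 lower with TMM, 877 and 1159 with DESeq2, 1299 and 871 without the rule genes, and 4536 and 1772 higher with 1 and 50 UMIs. Members with cell cycle genes made up 8.66% at 1% of UMIs and 62.9% among those of at least 1000 UMIs. Thinned to 700 UMIs, 39.6% had a granule UMI, 1.34% 3 MHC class II UMIs and 75.8% a Ly6c2 UMI.

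Of 628 ratios of single genes over these settings, 460 moved within counting error, 153 moved beyond it and 15 turned sign. Of 737 list medians, 128 moved by 0.3 or more on the log2 scale and 50 changed sign. Against Gngt2/Clec4a3 barcodes, Ccr2 had 0.31 with a minimum of 3 UMIs, 0.089 with TMM and 0.083 with DESeq2, and S100a4 had 0.25, 0.10 and 0.10, and 0.028 with barcodes weighted equally. Against other barcodes, Irf8 had -0.0021 without the rule genes, -0.33 with equal weights and -0.33 under the added set. Against calprotectin-high barcodes, Lyz2 had -0.39, -0.37 and -0.13 with TMM, DESeq2 and totals without the rule genes, and Top2a -0.087 and -0.062 with TMM and DESeq2. The cause was not tested. Depth limits single barcodes: at a median of 1259 UMIs, the floor of 3 counts over all members is 3.10 CPM.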

Other observations

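Lists not described above gave the following against the other marrow barcodes, where 5.5% of all measured genes were at least 2-fold higher and 9.82% lower. Counts of a few genes in such short lists lie near those shares. Of 17 Fc receptor and adaptor genes, 2 were at least 2-fold higher (Cd300a, an inhibitory receptor, and Lilrb4a, a leukocyte immunoglobulin-like receptor) and 3 lower, among them Trem3 at 42.4 CPM against 125 CPM. Of 8 eicosanoid genes, which make and handle leukotrienes and prostaglandins, none was higher and 3 were lower. Alox5, the first leukotriene enzyme, stood at 7.23 CPM against 30.3 CPM and Lta4h at 65.1 CPM against 144 CPM, while its partner Alox5ap stood at 705 CPM against 470 CPM. Of 17 glycolysis genes, 3 were higher, with Hk2, a hexokinase, at 183 CPM against 85.0 CPM, and 2 lower, with the glucose carrier Slc2a3 at 9.30 CPM against 42.5 CPM. None of 20 S phase or 25 G2 and M phase genes was past 2-fold against the other barcodes, and their medians were -0.03 and 0.54.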
